A study of Mus musculus with 15 samples.

Results

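The response of mouse embryonic stem (ES) cells to a short hairpin against Cbx7 was compared with the response of embryoid bodies made under the same hairpin, using all 15 arrays of the series as a 2 by 2 design. The quantity described is the difference between stages: the hairpin effect in the embryoid bodies (EB9 in the labels) minus the hairpin effect in ES cells, on the log2 scale, for 21184 genes. A positive value means that the effect was higher, or less negative, in EB9. The 4 groups were ES cells carrying hairpin 33 (KD33, 4 arrays), ES controls (3 arrays), EB9 with hairpin 33 (4 arrays) and EB9 controls (4 arrays). The labels give no treatment for the controls, and the design text names the ES control shCtr. A single hairpin was used, the strain and line are not given in the labels, and each array was hybridised with Cy3-labelled cRNA from 500 ng of total RNA. The labels call the samples biological replicates.

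Cbx7 is one of the chromodomain proteins through which canonical Polycomb repressive complex 1 (PRC1) binds histone H3 carrying the trimethyl mark at lysine 27, and it is the main Cbx protein of this complex in ES cells. On differentiation Cbx7 gives way to other Cbx proteins. PRC1 and PRC2 hold genes of development, Hox genes among them, at low levels in ES cells, and embryoid bodies turn many of these genes on as they form derivatives of the germ layers.

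All values below are log2 processed signal after subtracting each array's 75th percentile, a scale on which 0 is the level of a fairly bright probe. One probe stands for a gene. Tests are from 1 limma fit to the 4 groups, with p-values adjusted by Benjamini-Hochberg over the 21184 genes. A gene passed where its adjusted p was under 0.05. The fit takes 1 spread per gene for all 4 groups. A gene that varies more in EB9 thus gets too wide an error in ES cells and too narrow a one in EB9. Each group kept 1 array position on every slide (EB9 control 1, EB9 KD33 2, ES control 3, ES KD33 4), so the effects of position and of group cannot be told apart. Slides 1, 2 and 3 held all 4 groups, and slide 4 held no ES control. Between 62.5% and 69% of features were well above background on 14 arrays, and 75.4% on EB9 control 2.

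Cbx7 itself was dim. Its transcript probe at mm9 chr15:79746240-79746299 was well above background in all 4 groups on slides 2 and 3, where KD33 lay below control on both: the ES differences were −1.30 and −1.57, and those of EB9 were −0.36 and −0.52. On slide 1 the ES control (−6.30) was above background and the other 3 arrays were not, and on slide 4 no array was, so those slides give no size. The difference between stages was 0.94 and 1.04 within slides 2 and 3. The fits to all arrays, which include the 6 arrays not above background, gave 1.64 ± 1.68 (SE, adjusted p = 0.53), and 1.14 (adjusted p = 0.003) with slide as a block. A second probe at mm9 chr15:79748605-79748664 differed by −0.13 in ES cells and −0.16 in EB9, and neither passed.

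Naive ES markers placed the 2 stages apart. The summed linear signal of 6 naive ES markers (Pou5f1, Sox2, Nanog, Zfp42, Esrrb, Klf4) ran from 189 to 203 in ES controls and from 166 to 185 in ES KD33. In EB9 it was 4.81 to 6.46 in controls and 5.85 to 6.97 with the hairpin. Markers of red blood cells, mesenchyme, cardiac muscle, endothelium and visceral endoderm were well above background in both EB9 groups, with 4 of 4, 7 of 7, 5 of 5, 4 of 4 and 6 of 6 markers. In ES controls 2, 3, 5, 3 and 3 of them were above background too. The cardiac sum ran from 2.20 to 2.58 in ES controls and from 2.64 to 5.81 in EB9 controls. Myh6, the brightest of them in ES controls, was higher there (0.86) than in EB9 controls (−0.66). The other cardiac markers were lower in ES than in EB9 controls: Myh7 (−1.84 and 0.93), Tnnt2 (−4.43 and −0.84), Myl7 (−3.19 and −2.13) and Nkx2-5 (−3.69 and −2.34). The summed level of each of these 5 lists overlapped between the EB9 groups, and 3 of the 6 visceral endoderm markers fell in EB9. Parietal endoderm markers (Lama1, Col4a1, Sparc, Thbd) summed to 52.5 to 55.4 in ES controls and 33.4 to 37.5 in ES KD33, and to 112 to 124 in EB9 controls and 127 to 143 in EB9 KD33. Thbd was not above background in ES cells. The sum of this list lay lower with the hairpin in ES cells and higher in EB9, without overlap. In EB9 the sum follows Sparc, the brightest marker (mean of 6.67 in controls, next Lama1 at 3.82), which rose by 0.22. Col4a1 fell there by 0.25, and Lama1 (−0.15) and Thbd (−0.24) did not pass. The part of this list in the results below was not tested. In these bulk samples fewer cells of a type and less RNA per cell cannot be told apart.

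The hairpin effect depended on the stage at 6291 of 21184 genes (29.7%). The difference was positive at 2692 genes (12.7%) and negative at 3599 (17.0%), with a median over all genes of −0.04. At 4177 of the 6291 genes the ES effect passed and the EB9 effect did not, and at 760 genes the reverse held. At 213 genes both effects passed with the same sign but different sizes, and at 407 neither passed alone. The remaining 734 genes reversed: 424 (2.00%) rose in ES cells and fell in EB9, and 310 (1.46%) fell in ES cells and rose in EB9. Within slides 1, 2 and 3 the difference kept its sign at 422 of the 424 and 309 of the 310. It did so too at 4145 of the 4177 genes with an ES effect alone. The arrays of these slides are part of the fit that made the calls, so this agreement is no separate test.

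The effects of the 2 stages correlated weakly over all genes. Across the 21184 genes the ES and EB9 effects correlated at a Pearson r of 0.15 and a Spearman rho of 0.11, and r was 0.06, 0.15 and 0.08 within slides 1, 2 and 3. Over the 1039 genes that passed and changed at least 2-fold in ES cells, r was 0.30. These 2 comparisons share no array but share slides, and genes are not independent replicates. Of the 1039 (373 higher, 666 lower), 143 passed in EB9 in the same direction, 70 in the opposite direction and 826 (79.5%) did not pass. Of 294 such genes in EB9, 79 passed in ES cells in the same direction and 30 in the opposite one. Where both effects passed (1707 genes), 973 agreed in direction and 734 did not.

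More genes passed in ES cells (8147, 38.5%) than in EB9 (3211, 15.2%), and the EB9 arrays varied more. With slide as a block 5664 genes passed in EB9, the difference between stages passed at 8682 genes (6230 of them among the 6291), and the reversed genes numbered 895 and 556. With slides 1 to 3 alone, 12 arrays, they numbered 60 and 60. Leaving out EB9 KD33 replicate 3 gave 221 and 200, and EB9 KD33 replicate 4 gave 221 and 194. Leaving out EB9 control 4 lowered the first class to 231. Without EB9 KD33 replicate 2 they numbered 604 and 427. Of the 59 reversed genes named below, 25 kept the call with slides 1 to 3 alone, and 30 kept it under every other alternative.

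**Figure D1:**
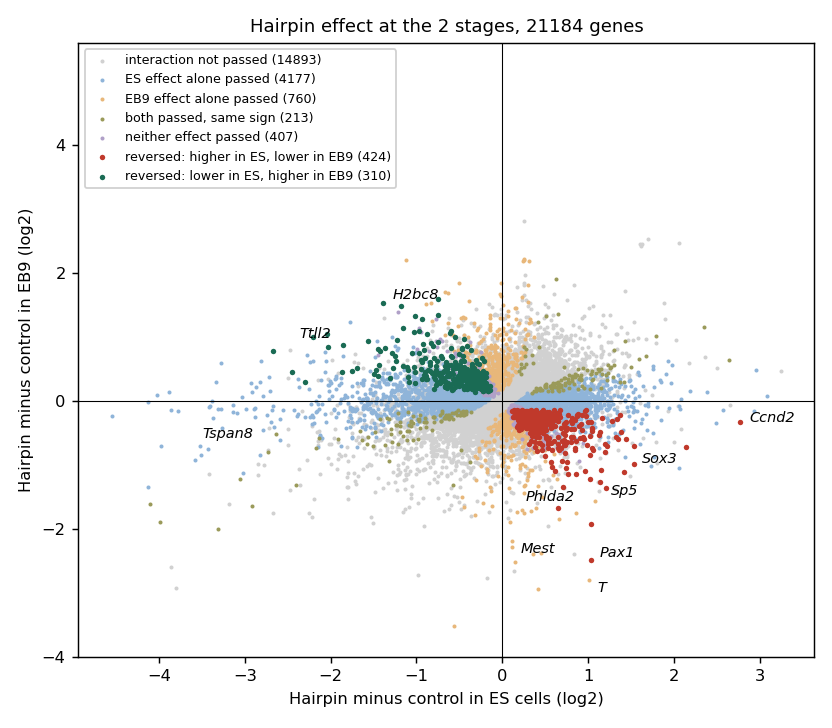
Hairpin effect in EB9 (vertical axis, log2) against that in ES cells (horizontal axis, log2), 1 point per gene, coloured by which of the 3 tests passed, with the number of genes in each class. The blue cloud along the horizontal axis holds the 4177 genes with an ES effect alone, and the red and green points in the lower right and upper left hold the 424 and 310 reversed genes.

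Both effects of a reversed gene were at least 2-fold at 7 genes in each orientation. The genes described first are the 8 in each orientation with the greatest smaller effect of the 2, among genes with an established name that were above background on at least 3 arrays of all 4 groups and whose difference kept its sign within slides 1 to 3. Within that limit both effects reached 2-fold at 3 of the 8 that rose in ES cells and at 1 of the 8 that fell there. Sp5, a zinc finger factor and Wnt target, read −4.33, −4.15 and −4.27 in the ES controls and −2.77, −2.90, −2.96 and −2.71 in ES KD33. In EB9 it read −0.81, 0.06, −0.98 and −0.77 in controls and −2.06, −1.18, −1.93 and −1.77 with the hairpin. The groups did not overlap at either stage: KD33 was above control in ES cells by 1.42 ± 0.23 (SE) and below it in EB9 by −1.11 ± 0.22, a difference between stages of −2.53 ± 0.32 (adjusted p = 9.5e-05). Its probe lies at mm9 chr2:70315688-70315747. Of all genes, 49.6% had no overlap between groups in ES cells and 15.7% had none in EB9.

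Sox3, an X-linked SoxB1 factor of neural progenitors, stood at −1.13, −0.70 and −0.70 in ES controls and 0.47, 0.81, 0.79 and 0.70 in ES KD33, a change of 1.53. EB9 controls read 0.36, 0.69, 0.96 and 0.75, and EB9 KD33 read −0.86, 0.47, −0.40 and −0.41, a change of −0.99. EB9 KD33 replicate 2 lay within the control range, and the EB9 groups overlapped. Phlda2, an imprinted growth restrictor, rose by 1.02 in ES cells (1.15, 1.21 and 1.40 against 2.24, 2.29, 2.28 and 2.28). It fell by 1.22 in EB9, where controls read 2.42, 3.07, 3.31 and 3.13 and KD33 read 1.34, 2.47, 1.67 and 1.55. Again EB9 KD33 replicate 2 was the highest of its group and overlapped the controls. With slides 1 to 3 alone the EB9 falls of Sp5, Sox3 and Phlda2 did not pass (adjusted p of 0.061, 0.13 and 0.072), while the stage difference of all 3 did.

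Fgf15, an FGF ligand of the neuroectoderm, rose by 1.15 in ES cells and fell by 1.07 in EB9, with controls of −2.03, −1.53, −1.89 and −1.93 there and KD33 at −3.16, −2.33, −3.20 and −3.002. Adora1, the adenosine A1 receptor, rose by 0.86 and fell by 1.14. Matn2, an extracellular matrix protein, rose by 1.20 and fell by 0.80. Nkx2-3, a homeobox factor of the gut and spleen mesenchyme, rose by 1.06 and fell by 0.77. None of these 4 overlapped at either stage, and their adjusted p for the difference between stages ran from 4.6e-06 to 4.3e-05. Crabp2, a cytoplasmic retinoic acid carrier, rose by 0.97 and fell by 1.09. Its reversal was less secure than the others: the EB9 arrays overlapped (controls 2.27 to 3.70, KD33 1.53 to 2.71), and leaving out EB9 KD33 replicates 1, 3 or 4, EB9 control 4, any ES control or ES KD33 replicate 1 lost the call at one stage, although the difference between stages passed throughout.

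Of the 8 genes chosen in the opposite orientation, 5 (H2bc8, Ttll2, Clnk, Cga and Hcst) were dim in EB9, with 3 of 4 controls above background. H2bc8, a histone H2B gene whose probe may also read near-identical copies of its cluster, read −4.45, −4.57 and −4.65 in ES controls and −5.68, −5.80, −5.96 and −5.50 in ES KD33. EB9 controls read −6.06, −6.45, −6.75 and −6.46 and EB9 KD33 −4.66, −5.69, −4.79 and −4.66. It fell by 1.18 in ES cells and rose by 1.48 in EB9, without overlap. Irx2, an Iroquois homeobox factor, fell by 0.74 in ES cells (controls −0.95, −0.99 and −1.02, KD33 −1.73, −1.67, −1.75 and −1.77). In EB9 it rose by 0.91, from −2.91, −2.22, −2.97 and −2.92 to −1.76, −1.86, −1.86 and −1.88. EB9 control 2 stood nearest the KD33 arrays, and a second Irx2 probe gave a difference of 1.07 that did not pass (adjusted p = 0.090 over probes).

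Cga, the common alpha subunit of the glycoprotein hormones, fell by 0.74 and rose by 1.34. Ttll2, of the tubulin tyrosine ligase-like family, fell by 1.86 and rose by 0.88. Adamts8, a secreted metalloprotease, fell by 0.87 and rose by 1.05, but a second probe showed a difference of −0.16 and the mean over its probes did not pass. Hcst, the DAP10 signalling adaptor, fell by 1.25 and rose by 0.70, Diras2, a small GTPase, fell by 1.05 and rose by 0.74, and Clnk, an adaptor of immune receptor signalling, fell by 1.37 and rose by 0.82. For Clnk the EB9 groups overlapped, and leaving out EB9 KD33 replicates 2, 3 or 4 or EB9 controls 1, 3 or 4 lost the EB9 call. For Cga, H2bc8 and Ttll2 a call at one stage was lost with the normexp background correction, and for Cga and Hcst with quantile normalisation.

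**Figure D2:**
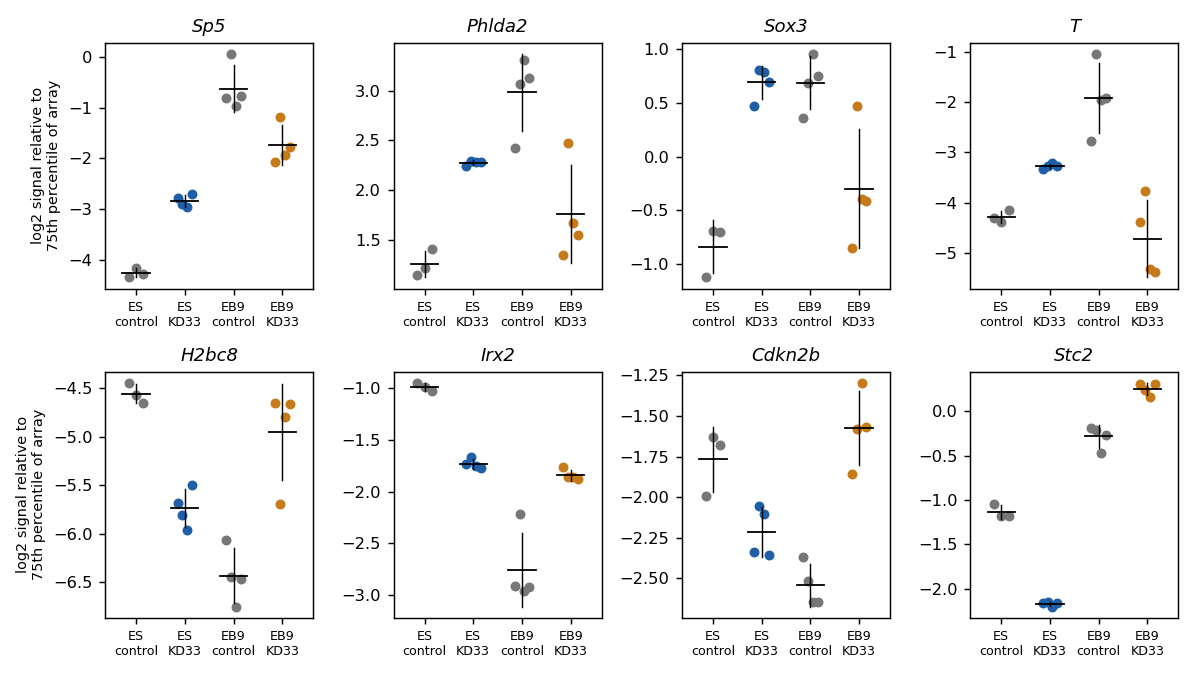
Signal of 8 genes on every array (points; log2 after subtracting each array's 75th percentile), with the mean (bar) and SD (line) of each group: ES control (n = 3), ES KD33, EB9 control and EB9 KD33 (n = 4 each). In the upper row KD33 lies above control in ES cells and below it in EB9, and in the lower row the order is turned. The ES effect of T did not pass (adjusted p = 0.059, with a spread shared by all 4 groups), though its ES groups do not overlap.

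The largest negative differences included falls in EB9 and rises in ES cells. T (Brachyury), the T-box factor of the primitive streak, read −2.76, −1.04, −1.95 and −1.92 in EB9 controls and −4.39, −3.78, −5.32 and −5.37 in EB9 KD33. It fell there by 2.79 ± 0.36 (adjusted p = 0.00048), to a level below every ES KD33 array. ES controls read −4.31, −4.38 and −4.15 and ES KD33 −3.33, −3.27, −3.21 and −3.27, without overlap. The difference of 1.01 missed the threshold (adjusted p = 0.059, and 0.040 with slide as a block). Its error comes from a spread shared with the more scattered EB9 arrays, so the missed call does not show that T was unchanged in ES cells. The difference between stages was −3.80 ± 0.53, the most negative among genes above background in all 4 groups. Cfc1 (Cryptic), a Nodal co-receptor, fell by 1.68 in EB9 and rose by 0.65 in ES cells, though the reversal call was lost when any single ES array was left out.

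Mest, an imprinted, paternally expressed gene of the mesoderm, passed in EB9 alone. EB9 controls read 2.63, 2.86, 3.18 and 3.11, and EB9 KD33 read 0.55, 0.73, 0.74 and 0.64, a fall of 2.28 ± 0.10. ES controls (0.46 to 0.55) and ES KD33 (0.57 to 0.68) differed by 0.12 ± 0.11, which did not pass. The ES groups did not overlap and the error uses the shared spread, so Mest is not shown to be unchanged in ES cells. The EB9 KD33 arrays thus overlapped the range of the ES cells. Ccnd2, which encodes cyclin D2, showed the opposite arrangement: it rose by 2.78 ± 0.07 in ES cells, from −3.20, −3.28 and −3.36 to −0.53, −0.45, −0.49 and −0.53, and fell by 0.33 ± 0.07 in EB9, from 2.08, 1.93, 1.82 and 1.96 to 1.59, 1.72, 1.47 and 1.70.

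Of the 8 named genes with the highest positive differences among genes above background in all 4 groups, Ttll2 (2.74) and H2bc8 (2.66) reversed, and the other 6 fell in ES cells and did not pass in EB9. Tspan8, a tetraspanin of epithelia, fell by 2.89 ± 0.06 in ES cells (controls −1.29 to −1.33, KD33 −4.14 to −4.24) against −0.13 ± 0.06 in EB9, a difference of 2.76 (adjusted p = 1.9e-09). Efhc2, an X-linked EF-hand protein, fell by 3.27 in ES cells against −0.43 in EB9, Akr1c13, an aldo-keto reductase, by 2.25 against 0.19, and Dyrk4, a kinase, by 2.06 against 0.45. DXBay18 and Olfr1466, whose probes may read near-identical gene copies, fell by 4.13 and 4.55 against −0.02 and −0.24. These 6 EB9 values did not pass (adjusted p from 0.13 to 0.96).

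Some genes were well above background at 1 stage or in 1 group only, so that one side of the comparison is a bound. Pax1, a paired-box factor of the sclerotome, was above background on all arrays but those of EB9 KD33. EB9 controls read −5.08, −5.98, −5.93 and −5.80, at least 2.11-fold above KD33, while in ES cells it rose by 1.03. Twist2, a bHLH factor of mesenchyme, was above background on no ES control and on all 4 ES KD33 arrays, at least 2.06-fold higher there, and read 1.36 to 1.64 in EB9 controls and 1.26 to 1.61 in EB9 KD33. Smim27, a small membrane protein, was likewise at least 3.81-fold higher in ES KD33 than in ES controls, but its stage difference did not pass without the filter on dim probes. Dnajc5g, Ptpn22, a lymphoid phosphatase, and Sh3rf2 were above background on all ES controls and on no ES KD33 array, at least 6.07-fold, 4.00-fold and 3.00-fold higher in controls, and at most 1 array of an EB9 group reached background. Their EB9 effects, that of Ptpn22 (0.77) included, therefore lie within the background. Bfsp2, a lens filament protein, followed the same arrangement with 1 ES KD33 array above background. Pou3f2, a neural POU factor, was above background on 4 ES KD33 arrays and 1 ES control, with an ES effect of 2.06 and an EB9 value of −1.04 that did not pass.

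Gene lists put these genes in context. For the lists described, the members past the threshold of the stage difference are given, to be read against 12.7% positive and 17.0% negative over all genes. Counts at 1 stage are to be read against 22.0% of all genes that rose and 16.5% that fell in ES cells, and 7.96% and 7.20% in EB9. The lists were chosen with earlier results of these data known, so their counts describe and do not test them.

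**Figure D3:**
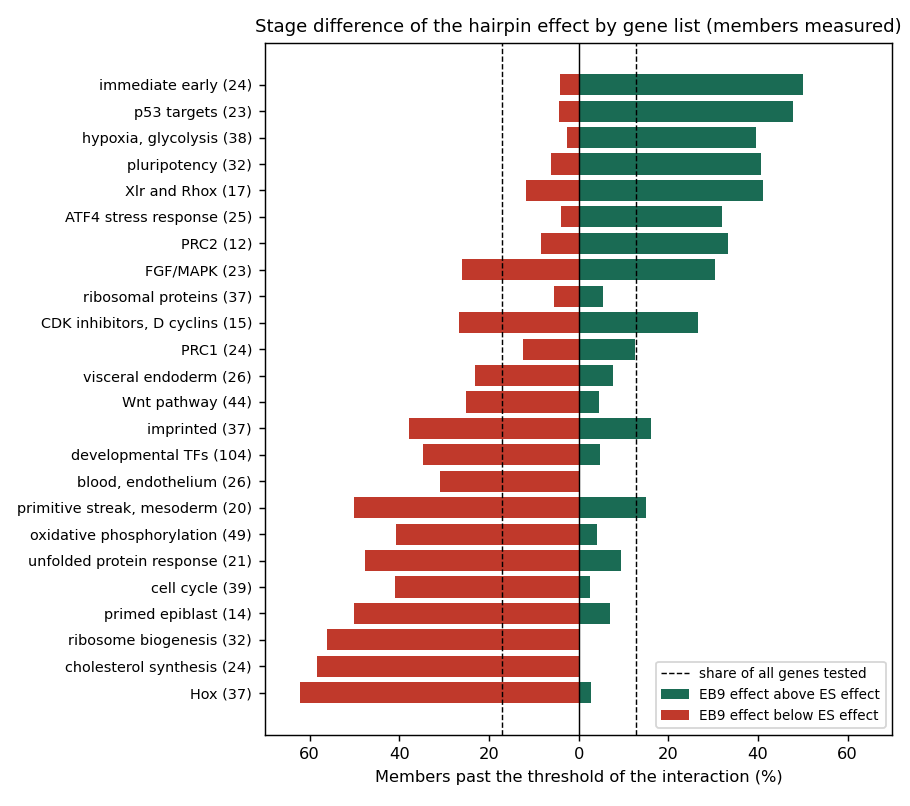
Share of the measured members of 24 of the gene lists counted (number of members in parentheses) whose stage difference passed, in percent. To the right the EB9 effect lay above the ES effect, and to the left below it. The other lists counted are not shown. Some of those lay near the shares over all genes, such as Notch (10% positive and 15% negative) and interferon (9.7% each). Others leaned, such as parietal endoderm (31.2% and 6.2%). Dashed lines give the shares over all genes (12.7% and 17.0%); Hox genes, cholesterol synthesis and ribosome biogenesis reach past 55% on the left, and immediate early genes and p53 targets reach 50% and 47.8% on the right.

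Hox genes, the homeobox factors that set position along the body axis and classic Polycomb targets, mostly had negative differences. Of 37 measured, 23 (62.2%) had a negative difference that passed and 1 a positive one, with a median of −1.13, and −0.71, −1.14 and −1.22 within slides 1, 2 and 3. In ES cells 20 rose and 2 fell. In EB9 none rose and 8 fell. At 9 of the 37, Hoxb8 and Hoxd12 among those named here, no ES array was well above background. Their ES effects lie within the background, and Hoxd12 and others of them are among the 20 that rose. With the deposited values of the authors the median shrank to −0.43.

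Hoxa7 read −2.63, −2.50 and −2.44 in ES controls and −1.15, −1.05, −1.07 and −1.05 in ES KD33, a rise of 1.44 ± 0.12. In EB9 it read −0.06, 0.49, 0.38 and 0.41 in controls and −0.12, −0.25, −0.35 and −0.42 with the hairpin, a fall of 0.59 ± 0.11. Hoxb6 rose by 1.14 in ES cells, where 1 of 3 controls was above background, and fell by 1.26 in EB9. Hoxb7 rose by 0.59 and fell by 1.04, and Hoxc9 rose by 0.74 and fell by 0.45. These 4 were the Hox genes that reversed, and none of the 4 overlapped at either stage.

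Elsewhere in the clusters one stage carried the difference. Hoxa9 rose by 1.06 in ES cells, where 1 of 3 controls was above background, against −0.36 in EB9 (adjusted p = 0.065). A second Hoxa9 probe gave a difference of −0.56 that did not pass. Hoxd4 rose by 1.52 against −0.10, and Hoxd8 by 0.70 against −0.12. Hoxb9 fell by 1.36 and Hoxb8 by 1.00 in EB9, against 0.08 and 0.21 in ES cells, and the stage difference of Hoxb8 did not pass with slides 1 to 3 alone. The EB9 falls that passed lay mainly in the Hoxb cluster, whereas the ES rises were spread over all 4 clusters. Hoxb13 fell in ES cells (−0.46, against −0.33 in EB9) and had no stage difference that passed (0.13, adjusted p = 0.39).

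**Figure D4:**
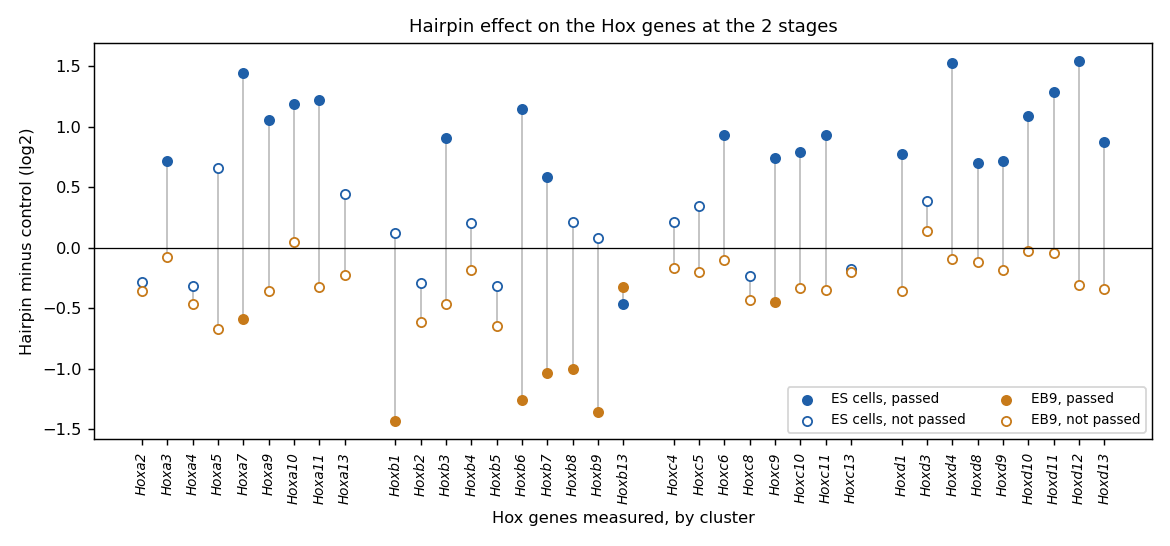
Hairpin effect (KD33 minus control, log2) on 36 of the 37 Hox genes measured, in cluster order, in ES cells (blue) and EB9 (orange); filled points passed at an adjusted p under 0.05 and open points did not. The blue points lie mostly above 0 and the orange points mostly below it.

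Other developmental transcription factors leaned the same way: of 104, 36 (34.6%) had a negative and 5 (4.8%) a positive difference, with a median of −0.53. In ES cells 44 rose and 8 fell, and in EB9 9 rose and 21 fell. Gata2, a factor of blood stem cells and trophoblast, rose by 1.39 in ES cells and fell by 0.48 in EB9. Gata4, a factor of endoderm and heart, rose by 0.79 in ES cells against −0.07 in EB9. Meis2, a Hox cofactor, went the other way, from −2.65, −2.72 and −2.64 in ES controls to −4.36, −4.26, −4.49 and −4.36 in ES KD33, and from 1.22, 1.21, 1.32 and 1.32 in EB9 controls to 1.97, 1.47, 1.89 and 1.78 in EB9 KD33. It thus fell by 1.70 in ES cells and rose by 0.51 in EB9, without overlap at either stage.

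Primitive streak and early mesoderm genes, which embryoid bodies express as they begin to form mesoderm, had 10 negative and 3 positive differences of 20 measured (50% and 15%, median −0.67). Here the EB9 side carried more: 11 of 20 fell in EB9 and 1 rose. Fgf8, the FGF ligand of the streak, rose by 0.71 in ES cells (−1.47, −1.34 and −1.19 against −0.75, −0.53, −0.64 and −0.57). It fell by 1.35 in EB9, from −0.67, 0.19, −0.47 and −0.42 to −2.13, −0.95, −1.88 and −1.81. The ES call of Fgf8 was lost without any 1 of 6 of the 7 ES arrays, while its second probe differed by −2.23 and passed. Cyp26a1, which degrades retinoic acid, fell by 0.77 in EB9 against 0.32 in ES cells (adjusted p = 0.066). Among the positive differences, Pdgfra, a receptor of mesoderm and primitive endoderm, fell by 0.81 in ES cells against 0.19 in EB9.

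Wnt signalling works through TCF and LEF factors with beta-catenin, and several streak genes are among its targets. Of 44 pathway genes measured, 11 (25%) had a negative and 2 a positive difference (median −0.22). Lef1 rose by 0.68 in ES cells and fell by 0.73 in EB9. The receptor gene Fzd5 fell by 0.47 and rose by 0.49, with a second probe that did not show a stage difference (−0.22, adjusted p = 0.62), and Fzd3 rose by 0.54 in ES cells against 0.05 in EB9. The first listed RefSeq promoters of Sp5 and T are shown because these genes lead the negative differences and each holds a TCF/LEF-type motif (CTTTGAA or CTTTGAT on either strand, in capitals) in the 250 bases before the start, in GRCm38.p6 coordinates and 5′ to 3′ along the gene.
Sp5 promoter, chr2:70474673-70474922, plus strand: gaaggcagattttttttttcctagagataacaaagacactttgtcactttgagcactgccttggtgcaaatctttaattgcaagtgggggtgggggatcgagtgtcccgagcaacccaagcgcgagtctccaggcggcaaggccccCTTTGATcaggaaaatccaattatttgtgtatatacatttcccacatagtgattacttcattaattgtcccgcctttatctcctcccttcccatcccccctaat
T promoter, chr17:8434173-8434422, plus strand: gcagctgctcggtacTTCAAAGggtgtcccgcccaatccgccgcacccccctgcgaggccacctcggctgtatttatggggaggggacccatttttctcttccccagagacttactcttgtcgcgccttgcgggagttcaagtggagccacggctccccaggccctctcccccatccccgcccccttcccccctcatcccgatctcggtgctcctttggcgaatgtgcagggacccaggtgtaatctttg
Relative to the gene's start the motif begins at −104 in Sp5 and at −235 in T. It was found in 836 of 13271 promoters of tested genes (6.3%; windows of 300 bases, reaching 50 bases past the start), in 3 of 27 of the Wnt list and in 19 of 280 (6.79%) of the genes that rose in ES cells and fell in EB9. The reversed genes thus held it about as often as genes in general, and a match is a description of the letters only.

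FGF and MAPK genes divided, with 7 positive and 6 negative of 23. Etv1, an ETS factor induced by FGF, fell by 1.22 in ES cells and by 0.19 in EB9. Fgf10 fell by 0.76 in ES cells and rose by 0.27 in EB9, a small rise that was lost when any of several EB9 arrays was left out. Among 40 Nodal, TGF-beta and BMP genes 5 were positive and 6 negative. Smad6, an inhibitor of BMP signalling, rose by 0.43 and fell by 0.23, and Bmp7 rose by 0.29 (lost without ES control 3 or 4 or ES KD33 replicate 1) and fell by 0.42, while Bmp2 rose by 0.60 in ES cells against −0.17. Cer1, a secreted Nodal inhibitor, was above background on the 4 EB9 controls (−4.64, −4.79, −5.67 and −5.99) and on no other array, at least 2.83-fold higher there than in EB9 KD33.

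Pluripotency genes ran against the developmental genes. Of 32 measured, 13 (40.6%) had a positive and 2 a negative difference (median 0.24; 0.40, 0.26 and 0.30 within slides 1, 2 and 3). In ES cells 4 rose and 9 fell, and in EB9 12 rose and 2 fell. Socs3, the feedback inhibitor of LIF and STAT3 signalling, read 5.36, 5.35 and 5.37 in ES controls and 4.98, 5.05, 4.98 and 4.89 in ES KD33, a fall of 0.39. It rose by 0.44 in EB9, from 1.94, 1.91, 1.70 and 1.72 to 2.14, 2.34, 2.23 and 2.34. Klf2 rose by 0.71 in EB9 against −0.11 in ES cells. Klf4 and Fbxo15 fell by 0.57 and 0.55 in ES cells against 0.28 and 0.17 in EB9; with slide as a block the EB9 rise of Klf4 also passed (adjusted p = 0.015). Pou5f1, Sox2, Nanog and Esrrb had no stage difference that passed.

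Genes of the primed epiblast, the state that follows naive pluripotency, leaned negative (7 of 14 against 1, median −0.45). The 1 positive difference was that of Otx2, a homeobox factor of the epiblast and forebrain, named after its values were seen. It read 1.04, 0.89 and 0.93 in ES controls and −0.58, −0.61, −0.48 and −0.45 in ES KD33, a fall of 1.48, against a fall of 0.49 in EB9 that was lost when any of several arrays was left out. The summed signal of 3 primed epiblast markers (Fgf5, Otx2, Pou3f1) ran from 2.55 to 2.84 in ES controls and from 1.30 to 1.36 in ES KD33. It overlapped in EB9 (2.73 to 4.56 and 1.98 to 2.85). In ES cells the sum follows Otx2, the brightest of the 3 (control mean 0.95, against −0.45 for Pou3f1 and −7.32 for Fgf5). There Pou3f1 did not pass (−0.21), and Fgf5 rose by 1.41 from a level not above background. Of the 14 genes of the list 6 rose and 2 fell in ES cells. Besides Fgf15, Sox3 and Lef1, Cdh2 (N-cadherin) rose by 1.10 in ES cells against 0.21 in EB9, where the rise passed with slide as a block (adjusted p = 0.017). Oncofetal RNA-binding and HMG genes were 1 positive and 4 negative of 10. Among them Lin28b, an inhibitor of let-7 processing, rose by 0.83 and fell by 0.56. Its EB9 fall was lost without EB9 KD33 replicates 1, 3 or 4 or EB9 controls 2, 3 or 4, and a second probe gave 0.21, not passed. Igf2bp3, another of them, rose by 0.53 against −0.11. Germ line and meiosis genes were 4 positive and 3 negative of 27 (14.8% and 11.1%), and retinoic acid genes 3 and 5 of 19 (15.8% and 26.3%). Stra8, a gatekeeper of meiosis that responds to retinoic acid, differed by −0.03 in ES cells, which did not pass, and rose by 1.68 ± 0.14 in EB9, from −2.21, −1.38, −1.84 and −1.93 to 0.10, −0.36, −0.21 and −0.17. Rec8, a meiotic cohesin, rose by 1.29 in ES cells and by 0.37 in EB9, and Rarg, a retinoic acid receptor, rose by 0.31 and fell by 0.27.

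Cell cycle regulators included a reversal within the INK4 locus, a known Cbx7 target. Cdkn2b, which encodes the CDK inhibitor p15, read −1.99, −1.63 and −1.68 in ES controls and −2.34, −2.06, −2.11 and −2.36 in ES KD33. In EB9 it read −2.37, −2.51, −2.64 and −2.64 in controls and −1.86, −1.58, −1.30 and −1.57 with the hairpin. It fell by 0.45 in ES cells, a call lost when ES control 3 or 4 or ES KD33 replicate 4 was left out, and rose by 0.97 in EB9. A second Cdkn2b probe gave −0.19 in ES cells and 0.93 in EB9, and with the mean of the probes or slides 1 to 3 alone the ES fall did not pass. Its neighbour Cdkn2a, which encodes p16 and p19ARF, rose at both stages: by 0.49 in ES cells (2.17, 2.07 and 2.22 against 2.74, 2.56, 2.49 and 2.78) and by 0.73 in EB9 (0.74, 0.33, 0.20 and 0.31 against 1.22, 1.02, 1.09 and 1.20). The difference of 0.24 ± 0.16 did not pass (adjusted p = 0.29), though it did without EB9 control 1.

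Of the 15 CDK inhibitor, cyclin D and pocket protein genes, 4 were positive and 4 negative. Cdkn1c, the imprinted inhibitor p57, rose by 0.86 in ES cells and fell by 0.62 in EB9. Ccnd1, cyclin D1, rose by 0.52 in ES cells against −0.49 in EB9 (adjusted p = 0.057). Cdkn1a, which encodes p21, fell by 0.58 in ES cells against 0.30 in EB9, but a second probe had the opposite difference (−1.13, not passed) and the mean of its probes gave −0.12. Cdkn1b, p27, differed by 0.43, a call lost with the normexp background, the mean of its probes or slides 1 to 3 alone. Cdk4 rose by 0.19 in ES cells against −0.13 in EB9, a difference that did not pass with quantile normalisation or the deposited values.

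Of 39 genes of DNA replication and mitosis, 16 (41%) had a negative and 1 a positive difference, though small (median −0.18). Over the 24 alternatives the negative count ran from 7 to 18, and the median shrank to −0.11 with the deposited values. In ES cells 17 rose and 3 fell, and in EB9 none rose and 7 fell. Gins1, of the replicative helicase, rose by 0.25 and fell by 0.26, though its ES rise did not pass with the deposited values nor its EB9 fall with slides 1 to 3 alone. Mcm6 rose by 0.31 in ES cells against −0.13, Cdc25c by 0.43 against −0.21 and Ccnb2 by 0.39 against −0.20, and with slide as a block these 3 falls in EB9 also passed (adjusted p of 0.035, 0.0076 and 0.0063). The stage difference of Mcm6 was −0.28 with quantile normalisation and −0.31 with the deposited values, where it did not pass.

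p53 targets and immediate early genes moved the other way. Of 23 p53 targets 11 (47.8%) were positive and 1 negative (median 0.31), and 12 fell in ES cells against 2 that rose. Btg2, an antiproliferative gene, read −0.47, −0.48 and −0.48 in ES controls and −1.32, −1.21, −1.34 and −1.33 in ES KD33. In EB9 it read 0.15, −0.04, −0.16 and −0.04 in controls and 0.41, 0.31, 0.47 and 0.49 with the hairpin, so that it fell by 0.82 and rose by 0.44. Ccng1 (cyclin G1) and Trp53inp1 fell by 0.95 and 0.75 in ES cells against −0.05 and 0.15 in EB9, and Phlda3, an inhibitor of AKT, fell at both stages, by 1.04 and 0.23.

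Of 24 immediate early genes, which respond within a short time to growth factors and stress, 12 (50%) were positive and 1 negative (median 0.44). Here the EB9 side carried more, with 11 higher and 1 lower. Fosl2, an AP-1 subunit, fell by 0.94 in ES cells and rose by 0.63 in EB9 (0.42, 0.28, 0.19 and 0.20 in controls, 0.99, 0.75, 0.92 and 0.95 in KD33), while a second probe gave 0.68, not passed. Ccn2, a YAP and TGF-beta target, fell by 0.75 and rose by 0.44, with overlapping EB9 groups and an EB9 call lost without EB9 KD33 replicate 4 or EB9 control 3 or 4. Junb fell by 0.31 and rose by 0.63, with an ES call lost when ES control 2 or 3 or one of 3 ES KD33 arrays was left out, and Ier3 rose by 0.82 in EB9 against −0.09.

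Of 38 glycolysis and hypoxia genes measured, 8 fell in ES cells and rose in EB9. Under low oxygen the factor HIF induces enzymes of glycolysis and its own feedback regulators. Of the 38 genes 15 (39.5%) had a positive and 1 a negative difference (median 0.28). In EB9 24 rose and none fell, while in ES cells 13 rose and 10 fell. The median difference was smaller within slides 1 and 2 (0.09 each) than within slide 3 (0.40). All 16 calls kept their sign within the 3 slides, whose arrays are part of the fit that made the calls.

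Hk2, the hexokinase of the first step of glycolysis, read 4.01, 4.07 and 4.16 in ES controls and 3.78, 3.90, 3.83 and 3.88 in ES KD33. In EB9 it read 3.97, 3.92, 3.70 and 3.79 in controls and 4.53, 4.32, 4.55 and 4.64 with the hairpin. It fell by 0.23 in ES cells, a call lost without ES control 3 or 4 or ES KD33 replicate 1, 3 or 4, and rose by 0.67 in EB9. Pfkp, the platelet phosphofructokinase, fell by 0.67 and rose by 0.54. Kdm3a, a histone demethylase induced by HIF, fell by 0.35 and rose by 0.54, and Ddit4, an inhibitor of mTORC1, fell by 0.41 and rose by 0.49. None of these 4 overlapped at either stage.

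The core letters of the HIF response element, ACGTG on either strand, were found in 18 of 34 promoters of this list (52.9%) against 3203 of 13271 (24.1%). They were also in 10 of 27 (37%) of the ribosome biogenesis list and 11 of 31 (35.5%) of the replication and mitosis list, which leaned negative. The median CG count of the hypoxia list was 21, against 18 over all genes. The list was made of hypoxia and glycolysis genes, so this share describes the list and not the hairpin effect. The promoters of Hk2, with 2 matches, and Ddit4, with 1, are shown because both genes reversed, with the matches in capitals and the same build and window as above.
Hk2 promoter, chr6:82774455-82774704, minus strand: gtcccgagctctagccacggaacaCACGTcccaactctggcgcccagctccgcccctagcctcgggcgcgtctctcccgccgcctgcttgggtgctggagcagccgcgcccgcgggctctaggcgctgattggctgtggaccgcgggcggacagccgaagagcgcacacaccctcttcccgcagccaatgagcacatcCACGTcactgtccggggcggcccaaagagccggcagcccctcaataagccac
Ddit4 promoter, chr10:59951771-59952020, minus strand: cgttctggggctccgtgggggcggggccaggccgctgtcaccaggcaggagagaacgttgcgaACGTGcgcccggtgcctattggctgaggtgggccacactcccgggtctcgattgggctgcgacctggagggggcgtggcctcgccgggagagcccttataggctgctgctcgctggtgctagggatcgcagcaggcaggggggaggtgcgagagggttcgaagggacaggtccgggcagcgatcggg
The reversed genes as a whole did not stand out in this motif: it was in 66 of 280 (23.6%) that rose in ES cells and 51 of 210 (24.3%) that rose in EB9. CG dinucleotides were also alike, with a median of 19 and 18 per window against 18 over all genes.

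Ribosome biogenesis genes leaned the other way. Of 32 measured, 18 (56.2%) had a negative and none a positive difference (median −0.41; −0.38, −0.41 and −0.42 within slides 1, 2 and 3). In ES cells 17 rose and 4 fell, and in EB9 none rose and 11 fell, with 5 reversals. Rrp9, a U3 snoRNP protein, read 1.54, 1.50 and 1.59 in ES controls and 2.22, 2.03, 2.07 and 2.16 in ES KD33, and in EB9 −0.18, −0.23, −0.21 and −0.09 in controls and −0.62, −0.41, −0.71 and −0.60 with the hairpin. It rose by 0.58 and fell by 0.41. Bop1 and Wdr12, both of the PeBoW complex of large subunit maturation, rose by 0.35 and 0.47 and fell by 0.54 and 0.29, and Gnl3 (nucleostemin) rose by 0.61 against −0.16. A second Wdr12 probe did not pass. Of cytoplasmic ribosomal protein genes, 2 were positive and 2 negative of 37 measured.

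**Figure D5:**
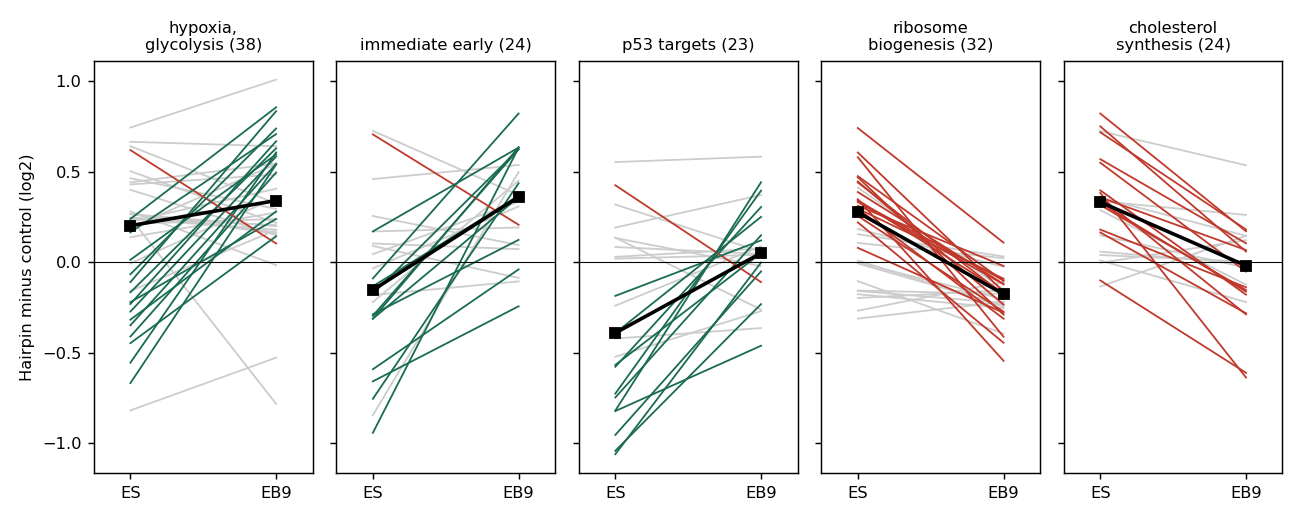
Hairpin effect (KD33 minus control, log2) in ES cells and in EB9 for the members of 5 gene lists, 1 line per gene and the number of members in parentheses; green and red lines passed the stage difference with a positive and a negative value, grey lines did not pass, and black squares are the medians. Hypoxia, immediate early and p53 target genes slope upward to EB9, and ribosome biogenesis and cholesterol genes slope downward.

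Cholesterol synthesis genes had 14 negative differences of 24 (58.3%) and no positive one (median −0.43; −0.38, −0.42 and −0.43 within slides 1, 2 and 3). In ES cells 14 rose and none fell. In EB9 2 rose and 4 fell. Srebf2, the master factor of the pathway, rose by 0.75 in ES cells against 0.06 in EB9, although its second probe missed the threshold (adjusted p = 0.072). Idi1, the isopentenyl diphosphate isomerase, rose by 0.55 against −0.05. Lss, lanosterol synthase, rose by 0.36 and fell by 0.29, an EB9 fall that did not pass with the deposited values, with normexp, with slides 1 to 3 alone or without EB9 KD33 replicate 3 or 4. CCAAT, the letters bound by NF-Y, was in 15 of 16 promoters of the list against 5103 of 13271 (38.5%). It was also in 24 of 31 (77.4%) of the replication and mitosis list and 13 of 21 (61.9%) of the Hox list. In ribosome biogenesis, another list that leaned negative, it was in 9 of 27 (33.3%).

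Oxidative phosphorylation genes shifted by small amounts in many members: 20 of 49 (40.8%) were negative and 2 positive (median −0.18). Ndufs4 and Ndufv1 of complex I rose by 0.45 and 0.46 in ES cells against −0.06 and −0.13 in EB9, and Uqcrc2 of complex III by 0.40 against −0.06. Over the 24 alternatives the negative count of this list ran from 9 to 24, and its median shrank to −0.02 with quantile normalisation. The size of this shift thus depends on the scaling. Chaperones and other genes of the unfolded protein response had 10 negative and 2 positive of 21. Hsp90b1 (GRP94) rose by 0.65 in ES cells and by 0.18 in EB9, and Canx (calnexin) rose by 0.40 against −0.00, both lost with the deposited values. Dnajb9 (ERdj4) went the other way, rising by 0.43 in EB9 against −0.15, although its second probe showed a difference of 0.06 that did not pass.

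Genes of the ATF4 stress response leaned positive (8 of 25 against 1, median 0.27). Stc2, a secreted stanniocalcin, read −1.05, −1.18 and −1.18 in ES controls and −2.17, −2.15, −2.20 and −2.16 in ES KD33. In EB9 it read −0.19, −0.21, −0.48 and −0.27 in controls and 0.30, 0.23, 0.16 and 0.30 with the hairpin. It fell by 1.03 ± 0.07 and rose by 0.53 ± 0.06, without overlap. Trib3, a pseudokinase that restrains ATF4, fell by 0.33 and rose by 0.52. Slc7a11, the cystine transporter, was above background in ES controls alone, at least 2.05-fold above ES KD33.

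Blood and endothelial genes had 8 negative differences of 26 and no positive one. Lmo2, a cofactor of blood and vessel formation, rose by 0.93 and fell by 0.46, Sox18, an endothelial factor, rose by 0.45 and fell by 0.42, and Cd34, a surface protein of both lineages, rose by 0.31 and fell by 0.26. The EB9 fall of Lmo2 was lost when EB9 KD33 replicate 2, 3 or 4 or EB9 control 1 or 4 was left out. Visceral endoderm genes were 6 negative and 2 positive of 26, with 12 lower in EB9 and none higher, and their median difference was −1.31, 0.29 and −0.28 within slides 1, 2 and 3. Cited1, a transcriptional cofactor, rose by 1.22 in ES cells and fell by 0.71 in EB9, a call lost without EB9 KD33 replicate 3 or 4, and Trf (transferrin) fell by 0.72 in EB9 against 0.40. Afp, alpha-fetoprotein, was above background on the EB9 arrays alone (means of 1.91 in controls and 2.20 in KD33, adjusted p = 0.18), so its stage difference rests on ES signals within the background and was lost with normexp and with the deposited values. Of 16 parietal endoderm and basement membrane genes 5 were positive and 1 negative. Sparc, a collagen-binding protein, fell by 0.55 in ES cells and rose by 0.22 in EB9, a rise lost without any 1 of 6 of the 8 EB9 arrays, and Col4a1 fell at both stages, by 0.79 and 0.25.

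Imprinted genes had 14 negative and 6 positive of 37 measured. Besides Mest, Phlda2 and Cdkn1c, the paternally expressed Dio3, a thyroid hormone deiodinase, rose by 2.09 ± 0.10 in ES cells against 0.03 in EB9. Magel2, of the Prader-Willi region, rose by 1.22 against −0.27. Zim1, a zinc finger gene, was above background in EB9 alone, and its second probe showed no stage difference. On the X chromosome the Xlr and Rhox genes, tandem copies that probes may not tell apart, divided. Xlr5a and Xlr5c fell in ES cells, with effects of −3.98 and −4.11, and were near background in EB9, with at most 1 array of a group above it. Rhox6 and Rhox9, reproductive homeobox genes, rose by 0.76 and 0.75 in ES cells and fell by 1.14 and 1.04 in EB9, with ES calls that were lost without single ES arrays, and that of Rhox6 also with slide as a block (adjusted p = 0.057).

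Of the Polycomb complexes themselves, 24 PRC1 and 12 PRC2 genes were measured. Of the 24 PRC1 genes 3 were positive and 3 negative (12.5% each), near the shares over all genes. Scml2 fell by 0.79 in ES cells against −0.11 in EB9, Rybp, of variant PRC1, by 0.48 against −0.10, and Phc2 by 0.30 against −0.04. Pcgf1 rose by 0.29 against −0.09, and it and Phc2 did not pass with slides 1 to 3 alone. Bmi1 fell at both stages, by 0.46 and 0.26, with no stage difference that passed (adjusted p = 0.09). Of the 12 PRC2 genes 4 (33.3%) were positive and 1 (8.3%) negative, with a median of 0.05. Suz12, a core subunit, fell by 0.62 in ES cells and by 0.21 in EB9, and Aebp2, an accessory subunit, by 0.45 against 0.16. Ezhip, an inhibitor of EZH2, rose by 0.68 in EB9 against −0.06. Rbbp4 rose by 0.25 against −0.20, but its second probe had the opposite difference (0.86, passed), so its direction is not settled.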

How the data were processed

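Total RNA of 15 samples was labelled with Cy3 and hybridised to 1-colour Agilent 44K mouse arrays, per the labels' protocols. The deposited scanner files hold spot intensity, background-subtracted by Agilent Feature Extraction 10.7.3.1 per the file headers. A deposited table holds log2 values of the same arrays; on all features it matched normexp correction (offset 50) followed by quantile normalisation, and it served as an alternative. Of 39429 non-control probes, the 27250 well above background on at least 3 arrays of a group were kept, and the brightest stood for each of 21184 genes. Intensity was taken as log2 minus the 75th percentile of the array.

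The 4 group means were fitted to all 15 arrays with limma 3.58.1 in R 4.3.3 (lmFit, contrasts.fit, eBayes; two-sided, Benjamini-Hochberg), after the script was tested on simulated data. Alternatives were normexp, quantile normalisation, the deposited table, 2 filters, the mean of probes, slide or replicate number as a block, slides 1 to 3 and leaving out each array. The members and lists were chosen with earlier results of these data known. Named were the 8 leading reversals in each orientation, the 8 highest and 8 lowest differences, 4 highest and 4 lowest among genes absent from a group, and list members; Otx2 was added after its values were seen. Some genes are not reported here. A fold bound compares the bright group with the lowest signal well above background. Probe coordinates are mm9, and whether probes lie in exons or UTRs was not analysed here. Promoters are from RefSeq, GRCm38.p6, for 13271 genes.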

Additional observations from a re-analysis of the deposited data

Results flagged for a closer look

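The hairpin effect differed between ES cells and EB9 by the test of the difference itself (limma, adjusted p under 0.05) at 131 of the 134 genes named. Most were named because they passed this test or had the lowest adjusted p of a list, so this count follows from the choice. Over all genes 29.7% passed. The values are the EB9 effect minus the ES effect on the log2 scale. Among Hox genes the difference was −2.03 for Hoxa7, −2.41 for Hoxb6, −1.62 for Hoxb7, −1.19 for Hoxc9, −1.42 for Hoxa9, −1.62 for Hoxd4, −1.44 for Hoxb9 and −0.82 for Hoxd8. Among other developmental transcription factors the difference was −2.52 for Sox3, −1.84 for Nkx2-3, −1.87 for Gata2, −0.86 for Gata4 and −0.87 for Sox18. It was 1.66 for Irx2, 2.21 for Meis2 and 0.99 for Otx2. Among streak, Wnt, FGF, BMP and primed epiblast genes the difference was −2.53 for Sp5, −2.22 for Fgf15, −3.80 for T, −1.09 for Cyp26a1, −2.06 for Fgf8, −1.41 for Lef1, −0.49 for Fzd3, −0.89 for Cdh2, −0.66 for Smad6, −0.71 for Bmp7, −0.77 for Bmp2 and −1.01 for Ccnd1. It was 1.01 for Pdgfra, 0.96 for Fzd5, 1.02 for Etv1 and 1.03 for Fgf10. Among pluripotency genes the difference was 0.83 for Socs3, 0.85 for Klf4, 0.82 for Klf2 and 0.72 for Fbxo15. Among CDK, cyclin, p53 and cell cycle genes the difference was −3.11 for Ccnd2, −1.49 for Cdkn1c, −0.31 for Cdk4, −0.51 for Gins1, −0.64 for Cdc25c, −0.58 for Ccnb2 and −0.44 for Mcm6. It was 1.41 for Cdkn2b, 0.88 for Cdkn1a, 0.43 for Cdkn1b, 1.26 for Btg2, 0.81 for Phlda3, 0.90 for Ccng1 and 0.90 for Trp53inp1. Among immediate early genes, stress genes and chaperones the difference was −0.40 for Canx and −0.47 for Hsp90b1. It was 1.57 for Fosl2, 1.19 for Ccn2, 0.91 for Ier3, 0.95 for Junb, 1.57 for Stc2, 0.91 for Ddit4, 0.85 for Trib3 and 0.59 for Dnajb9. Among genes of glycolysis, respiration and sterol synthesis the difference was −0.51 for Ndufs4, −0.59 for Ndufv1, −0.46 for Uqcrc2, −0.60 for Idi1, −0.65 for Lss and −0.69 for Srebf2. It was 0.90 for Hk2, 0.89 for Kdm3a and 1.21 for Pfkp. Among ribosome biogenesis genes the difference was −0.99 for Rrp9, −0.77 for Gnl3, −0.76 for Wdr12 and −0.89 for Bop1. Among blood, endothelial and endoderm genes the difference was −1.39 for Lmo2, −0.57 for Cd34, −1.93 for Cited1 and −1.13 for Trf. It was 0.78 for Sparc and 0.54 for Col4a1. Among imprinted, Xlr and Rhox genes the difference was −2.24 for Phlda2, −2.40 for Mest, −2.06 for Dio3, −1.49 for Magel2, −1.79 for Rhox9 and −1.91 for Rhox6. Among retinoic acid, germ line, oncofetal and Polycomb genes the difference was −2.06 for Crabp2, −0.92 for Rec8, −0.58 for Rarg, −0.45 for Rbbp4, −0.39 for Pcgf1, −0.65 for Igf2bp3 and −1.39 for Lin28b. It was 1.71 for Stra8, 0.68 for Scml2, 0.38 for Rybp, 0.41 for Suz12, 0.60 for Aebp2, 0.74 for Ezhip and 0.26 for Phc2. Among genes of no list above the difference was −2.0005 for Adora1, −2.001 for Matn2 and −2.33 for Cfc1. It was 2.66 for H2bc8, 2.74 for Ttll2, 1.92 for Adamts8, 2.19 for Clnk, 1.80 for Diras2, 2.08 for Cga, 1.94 for Hcst, 4.31 for Olfr1466, 4.10 for DXBay18, 2.84 for Efhc2, 2.76 for Tspan8, 2.51 for Dyrk4 and 2.45 for Akr1c13. At 16 further genes a group had no array above background, so the fitted difference rests in part on background signal and is no measured size: it was 4.12 for Bfsp2, 3.72 for Dnajc5g, 3.63 for Sh3rf2, 3.45 for Ptpn22, −3.52 for Pax1, −3.10 for Pou3f2, −3.09 for Twist2, −3.005 for Smim27, −1.86 for Hoxd12, −1.21 for Hoxb8, −2.95 for Cer1, 3.21 for Slc7a11, 1.28 for Afp, 1.62 for Zim1, 3.27 for Xlr5a and 2.50 for Xlr5c.

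Single arrays stood apart from the other 3 of their group at 24 of 402 groups of 4 arrays looked at, where the gap to the nearest array, over the range of the group, passed the critical value of Dixon's test. Chance alone gives about 1 in 20. The values are log2 signal on the scale of the report. EB9 KD33 replicate 2 read 2.71 for Crabp2, −4.09 for Nkx2-3, −5.69 for H2bc8, −4.89 for Hoxb9, 0.41 for Ccnd1, 0.99 for Trp53inp1, 2.35 for Cited1 and −0.62 for Zim1. EB9 control 1 read −2.69 for Matn2, −2.86 for Nkx2-3, −8.69 for Dyrk4, −3.64 for Hoxa9 and 2.20 for Afp. EB9 KD33 replicate 1 read −1.76 for Irx2, −0.016 for Hoxd8 and −0.43 for Klf4. EB9 control 2 read −2.22 for Irx2. ES KD33 replicate 4 read −2.82 for Gata4. EB9 KD33 replicate 3 read −7.98 for Cer1, 3.86 for Ccnb2 and −0.12 for Dnajb9. ES KD33 replicate 2 read −1.21 for Btg2. EB9 KD33 replicate 4 read −7.39 for Slc7a11. ES KD33 replicate 3 read −8.72 for Afp. EB9 KD33 replicate 2 and EB9 control 1 recur, and the cause was not tested.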

How the results depend on the processing

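The 131 named genes past the threshold kept the sign of the stage difference under every alternative that gave a value (24, or 23 for the 24 genes left out where every array had to be above background), other than Cdkn1a (−0.12) and Rbbp4 (0.20), which turned with the mean of all kept probes. These genes were named largely by this test, so their agreement across alternatives describes them and is no separate test. The stage difference passed at 6291 genes and ran from 5270 to 6750 when 1 array was left out. It passed at 5492 with normexp background correction (4784 of them among the 6291), 6002 with quantile normalisation (5285) and 5535 with the deposited values of the authors (4582). The positive share of these calls was 42.8%, and 39.3%, 48.2% and 49.8% under those 3 settings. Genes past the threshold with a difference of at least 2-fold numbered 1134, and 478 with normexp, 479 with the deposited values and 634 where every array had to be above background. With slides 1 to 3 alone the counts were 4006 for the stage difference (1741 positive, 2265 negative), 60 and 60 for the reversed classes, 208 for an EB9 effect alone and 674 for the EB9 effect, from fewer arrays. With slide as a block they were 895 and 556 for the reversed classes, 1326 for an EB9 effect alone and 5664 for the EB9 effect. The first reversed class (424) was 256 with the deposited values and 245 with no filter on dim probes. Leaving out 1 array gave 221 to 604 for it, 194 to 427 for the second (310), 442 to 1168 for an EB9 effect alone (760) and 1807 to 4393 for the EB9 effect (3211). The lowest counts came without EB9 KD33 replicate 3 or 4 and the highest without EB9 KD33 replicate 2, and EB9 control 4 also lowered the EB9 count to 2035. The cause was not tested. Of the 59 named reversals, the deposited values lost the call at Cfc1, Crabp2, Fzd5, Gins1, Hk2, Junb, Lin28b, Lss, Ptpn22, Sparc, Ttll2 and Wdr12, normexp at Cfc1, Cga, Fgf10, Fosl2, H2bc8, Hk2, Junb, Lin28b, Lss, Ptpn22, Ttll2 and Wdr12, and the mean of probes at Adamts8, Cdkn2b, Fosl2, Fzd5, Irx2, Lin28b, Sparc and Wdr12. The first Cbx7 probe gave a difference of 1.14 that passed with slide as a block. The second (−0.03, not passed) ran from −0.21 to 0.22 when 1 array was left out, and its sign is not settled, with 0.04, 0.04, 0.22, 0.03, 0.01, 0.02 and 0.08 among the values.

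The replicate number of the labels did not pair the arrays. Deviations from the group means correlated at a median r of 0.34 (−0.59 to 0.55) over 21 pairs of the same number and at 0.43 (0.21 to 0.63) over 21 pairs of the same slide. Of the 21 pairs of the same number, the 9 that hold an ES control lie on different slides, and these correlated at a median of −0.34 (−0.59 to 0.37). With the replicate number as a block 6925 genes passed, 6059 of them among the 6291. Precision is limited by how many arrays a group has, and dim probes near background have only bounds.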
